A study of Mus musculus with 6 samples.

Results

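The mouse genes named Zfp followed by a number encode zinc finger proteins, most of them with the C2H2 finger, in which 2 cysteines and 2 histidines hold a zinc ion so that the finger can read a few bases of DNA. Arrays of such fingers give each protein its own DNA sequence preference. Many of these proteins also carry a KRAB domain, which binds TRIM28 (KAP1), and TRIM28 in turn brings the histone H3K9 methyltransferase SETDB1 and heterochromatin proteins to the bound site. KRAB zinc finger genes are known for silencing transposable elements, and they lie in clusters of related copies that arose by tandem duplication.

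The numbered Zfp genes were taken from the deposited gene table as protein-coding rows whose symbol is Zfp and a number. They were chosen by their deposited counts: a gene had to have at least 20 counts in every MA-10 library or in every STARKO1 library. Zfp36, an mRNA-binding protein with another type of finger, was left out. Of 301 such rows among the 14774 genes of the table, 270 met the rule, 241 of them with 20 counts or more in every library and 29 in the STARKO1 libraries only. The minimum was set on the same counts that the comparison uses. It does not choose a direction among the 241, so the test is given for those, whereas the 29 are described by their values without a test. Just inside the minimum lay Zfp433, whose lowest STARKO1 count was 20.2, and Zfp658 with 21. Just outside lay Zfp14, whose lowest STARKO1 count was 19. The 31 genes that missed the minimum included 17 that could be tested, none of which passed.

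MA-10 is a mouse tumor Leydig cell line, and the 3 MA-10 libraries were made from untreated wild type cells. The 3 STARKO1 libraries were made from untreated cells of 1 clone of MA-10, grown up from a single sorted cell after CRISPR/Cas9 cutting in the second exon of Star, the gene of the steroidogenic acute regulatory protein that delivers cholesterol to mitochondria for steroid synthesis. Any difference between the lines is therefore one between a clone and its parent line, and the effect of the deletion and of cloning cannot be told apart. Nothing in the labels says that the libraries of a line came from separate cultures, so the p-values measure the spread between these libraries, which may be technical.

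The libraries held between 14114349 and 19530054 counts. Star was measured at 60.9, 109 and 61.4 CPM (counts relative to the TMM-scaled library size) in MA-10 replicates 1 to 3 and at 2.06, 2.71 and 2.02 CPM in STARKO1. All 10 Leydig cell markers examined were at 1 CPM or more in both lines, but their levels were not all alike. Hsd3b1 was at 27.8, 37.2 and 24.3 CPM in MA-10 and 5.12, 5.72 and 4.72 CPM in STARKO1 (log2 fold change -2.52, edgeR adjusted p = 0.00268). Cyp11a1 and Cyp17a1 had log2 fold changes of -0.93 and 1.27 (edgeR adjusted p = 0.0670 and 0.0949). Fits without MA-10 replicate 1 are not given for these markers. Of the Sertoli cell markers, Sox9, Amh, Cldn11 and Fshr were not analysed here, and the other 2 summed to between 333 and 524 CPM in MA-10 and between 565 and 589 CPM in STARKO1. Most of this sum was Rhox5, as Dhh lay between 16.9 and 20.2 CPM in all libraries. The 2 endothelial markers analysed summed to between 26.4 and 41.5 CPM in MA-10 and between 118 and 124 CPM in STARKO1. Nearly all of this was 1 gene, Cdh5 (log2 fold change 1.84, edgeR adjusted p = 0.00596), as Pecam1 was under 1 CPM in every library. The part of these markers in the results was not tested.

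MA-10 replicate 1 differed from MA-10 replicates 2 and 3. Across genes its profile correlated less with MA-10 replicates 2 and 3 (Pearson r = 0.802 and 0.874) than with the STARKO1 libraries (0.949 to 0.955), and the STARKO1 libraries correlated with each other at 0.995 to 0.996. The 7SL RNA took 1.81% of the counts in MA-10 replicate 1 and 14.4% and 6.63% in replicates 2 and 3, against 1.82% to 2.37% in STARKO1. Gm26917 took 8.71%, 0.571% and 1.63% in MA-10 replicates 1 to 3 and 4.97% to 6.03% in STARKO1. The TMM factors were 1.16, 0.654 and 0.805 in MA-10 and between 1.17 and 1.19 in STARKO1. By these measures replicates 2 and 3 were the libraries away from STARKO1. Which MA-10 libraries better represent the line, and the part of these differences in the results, was not tested. Calls and medians are given with all libraries. They are also given without MA-10 replicate 1 where that changed a call or a direction or moved a median by more than 1.5 times.

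The Zfp genes did not share a direction. Among the 241 genes at the minimum in every library, 122 had a higher and 119 a lower fitted level in STARKO1, and the median log2 fold change was 0.023, against -0.083 for the 10071 genes of the table with 20 counts in every library. The middle 50 percent of the Zfp genes lay between -0.40 and 0.32. With edgeR's quasi-likelihood test and an adjusted p under 0.05, 8 Zfp genes were higher and 7 lower in STARKO1, or 6.22% of the 241. Among all 10071 genes at the same minimum the test called 3.45% higher, 4.43% lower and 7.87% in either direction, so the Zfp share lies close to the background. Under scaling by the upper quartile the split was 9 higher and 3 lower, and under scaling by the total count alone it was 3 and 0, while the median of all tested genes moved from -0.050 to 0.095 and 0.38.

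Few Zfp genes changed by a large amount. A fitted change of more than 2-fold was found for 19 of the 241 Zfp genes (7.88%) and for 17.5% of the genes at the same minimum. The MA-10 and STARKO1 libraries did not overlap for 39 Zfp genes that were higher and 43 that were lower in STARKO1, together 34.0%. For all genes at the minimum the shares were 20.3% higher and 22.1% lower. The difference between the shares was not tested.

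Without MA-10 replicate 1 the picture was wider but equally balanced. With the 5 remaining libraries 73 Zfp genes were called higher and 63 lower, or 56.4% of the 241, and the median log2 fold change was 0.088, against 0.013 for the genes at the same minimum. The same fit called 34.0% of all tested genes higher and 31.7% lower, 65.7% in all. Among the genes at the same minimum it called 67.2%. Those genes had a median level of 32.9 CPM, against 10.9 CPM for the Zfp genes. Whether the shares differ was not tested. For 12 of the 15 genes called with all libraries, MA-10 replicate 1 was the MA-10 library nearest to STARKO1, and all 15 were also called without it. Leaving out any other library instead left between 1 and 3 higher and at most 1 lower.

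Zfp423 rose by the most. Its protein carries 27 fingers by the pattern search used here and is known as a partner of SMAD and EBF proteins that commits cells to the fat lineage. The gene (chr8:87661810-87959596, minus strand, GRCm38) was measured at 4.24, 2.95 and 3.17 CPM in the MA-10 libraries and at 21.9, 24.6 and 23.3 CPM in the STARKO1 libraries. Every STARKO1 library was more than 5 times as high as every MA-10 library, MA-10 replicate 1 included. The log2 fold change was 2.74 ± 0.203 (SE, n = 3 per line, edgeR adjusted p = 0.00191), and it passed in each of the 6 fits that left out a library.

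The other 7 Zfp genes that rose all encode KRAB zinc finger proteins. Zfp213 (chr17:23556767-23564239) went from 8.02, 3.99 and 3.79 CPM in MA-10 to 13.9, 18.0 and 18.4 CPM in STARKO1, with a log2 fold change of 1.65 ± 0.327 (edgeR adjusted p = 0.0318). MA-10 replicate 1 lay between the lines, and without it the log2 fold change was 2.19. Zfp111 (chr7:24193947-24211444) was measured at 5.44, 4.68 and 3.96 CPM in MA-10 and at 11.9, 11.8 and 13.8 CPM in STARKO1, a log2 fold change of 1.41 ± 0.194 (edgeR adjusted p = 0.0112). Zfp90 (chr8:106415327-106426599) had 3.95, 2.69 and 2.73 CPM in MA-10 and 7.44, 6.43 and 7.58 CPM in STARKO1, a log2 fold change of 1.18 ± 0.233 (edgeR adjusted p = 0.0318).

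Zfp65 on chromosome 13 rose from 6.18, 8.76 and 6.60 CPM to 15.1, 15.2 and 13.4 CPM (log2 fold change 1.02, edgeR adjusted p = 0.0292). For this gene MA-10 replicate 1 was the lowest library of all. The 3 smaller increases were those of Zfp994 on chromosome 17 (0.98), Zfp27 on chromosome 7 (0.86) and Zfp961 on chromosome 8 (0.68 on the log2 scale), with edgeR adjusted p between 0.0313 and 0.0398. In each of them the STARKO1 libraries lay above all MA-10 libraries. Of the 6 fits that left out a library, Zfp111 and Zfp65 passed in 2 each. Zfp213, Zfp90, Zfp994, Zfp27 and Zfp961 passed in 1 each, that without MA-10 replicate 1. Values of Zfp423 and Zfp994 were not whole in some library, as were those of 8007 of the 14774 rows of the table. Such values can arise when a counting program divides reads between similar genes, so the level of these genes may carry that uncertainty. Their source was not tested. The other 6 had whole counts throughout.

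Among the Zfp genes that fell, Zfp9 changed the most. Zfp9, a KRAB zinc finger gene (chr6:118461950-118479321, minus strand), was measured at 7.62, 5.46 and 9.86 CPM in MA-10 and at 1.98, 2.06 and 2.30 CPM in STARKO1, a log2 fold change of -1.85 ± 0.273 (SE, edgeR adjusted p = 0.0142). It is 1 of 2 called Zfp genes, with Zfp423, that also passed when the replicate number was added as a block. Here MA-10 replicate 1 lay between the other MA-10 libraries, and the change without it was -1.77. Zfp9 passed in 2 of the 6 fits that left out a library.

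Zfp52 (chr17:21535539-21562602) was the most abundant of the called genes, at 49.3, 80.2 and 76.4 CPM in MA-10 and 30.2, 26.0 and 25.3 CPM in STARKO1 (log2 fold change -1.33 ± 0.225, edgeR adjusted p = 0.0215). Zfp358 (chr8:3493138-3497209), which has fingers but no KRAB domain, had 19.3, 40.9 and 38.1 CPM in MA-10 and 13.6, 12.3 and 13.8 CPM in STARKO1 (-1.31 ± 0.294, edgeR adjusted p = 0.0430). In both genes MA-10 replicate 1 lay between its sister libraries and STARKO1. Zfp984 on chromosome 4 (-1.04), Zfp260 on chromosome 7 (-0.94) and Zfp81 on chromosome 17 (-0.90 on the log2 scale) had the same order of libraries, with edgeR adjusted p between 0.0433 and 0.0483. Of 9 alternative settings with all libraries, Zfp984 passed in 2 and Zfp260 and Zfp81 in 3 each. Each passed in 1 of the 6 fits that left out a library, as did Zfp52 and Zfp358. Zfp52, Zfp358, Zfp984 and Zfp260 had values that were not whole in some library, and Zfp9, Zfp81 and Zfp410 had whole counts throughout.

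Zfp410, whose protein is known for activating the chromatin remodeler gene Chd4, was lower in STARKO1 by the smallest amount. It was measured at 18.9, 20.7 and 21.6 CPM in MA-10 and at 12.9, 13.5 and 11.2 CPM in STARKO1 (log2 fold change -0.70 ± 0.159, edgeR adjusted p = 0.0434), and all MA-10 libraries lay together. The call passed in only 2 of 9 alternative settings and in 1 of the 6 fits that left out a library. Chd4 itself was at 596, 470 and 776 CPM in MA-10 and 674, 696 and 751 CPM in STARKO1, a log2 fold change of 0.20 that did not pass (edgeR adjusted p = 0.552).

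**Figure D1:**
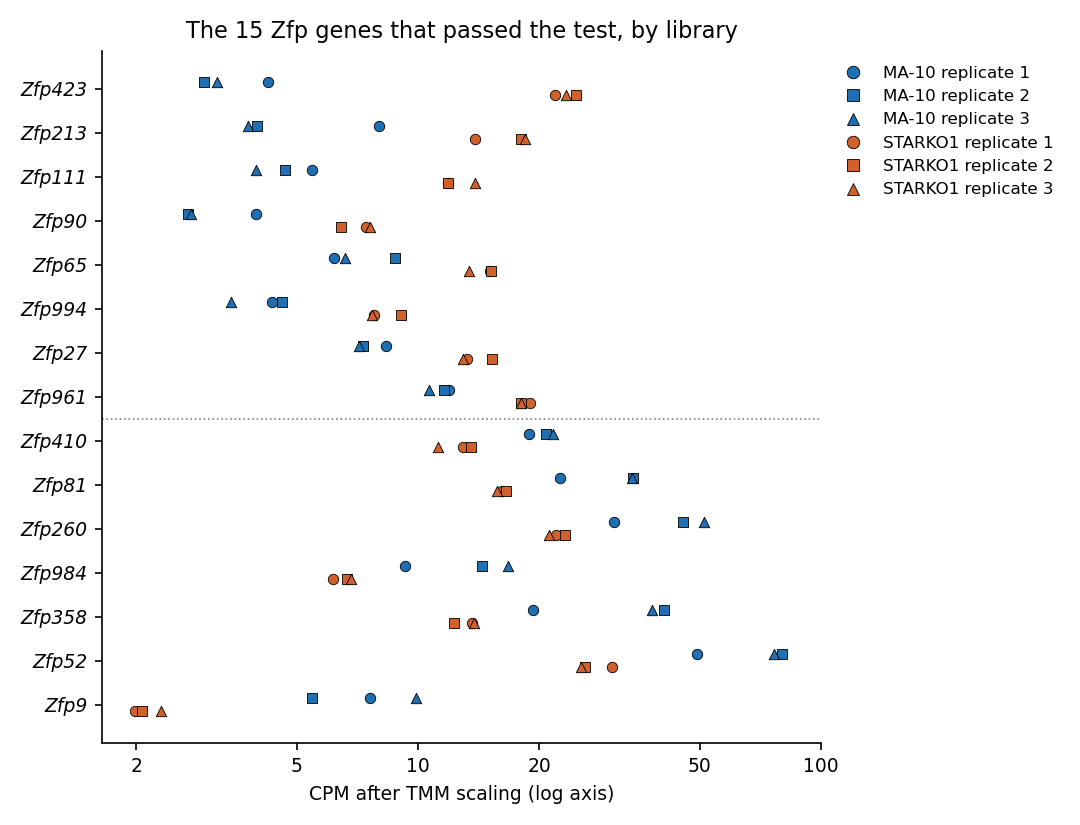
CPM after TMM scaling (log axis) of the 15 numbered Zfp genes that passed the test in each of the 6 libraries, blue for MA-10 and orange for STARKO1, with a symbol for each replicate; the 8 above the dotted line were higher in STARKO1 and the 7 below it lower. The groups do not overlap for any of the 15 genes, and MA-10 replicate 1 (blue circles) is the MA-10 library nearest to STARKO1 for 12 of them.

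The lowest fold change of all belonged to a gene that did not pass. Zfp513, named here after its values were seen, was at 7.10, 69.8 and 41.0 CPM in MA-10 and at 6.50, 6.37 and 7.02 CPM in STARKO1. MA-10 replicate 1 sat with the STARKO1 libraries, and the high level was that of MA-10 replicates 2 and 3. The log2 fold change was -2.56 ± 0.723 (edgeR adjusted p = 0.0650) with all libraries and -2.97 without MA-10 replicate 1 (edgeR adjusted p = 2.03e-05).

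The 29 Zfp genes that reached 20 counts in every library of STARKO1 only were all expressed at a low level, with a median of 1.90 CPM, and no gene reached the minimum in MA-10 only. The minimum was not the same level in each library. It corresponded to 1.15, 1.73 and 1.76 CPM in MA-10 replicates 1 to 3 and to 0.860, 1.18 and 1.12 CPM in STARKO1, so a gene at an equal level could miss it in MA-10 alone. With a minimum of 2 CPM instead, 230 of the 301 genes reached it in every library, 20 in STARKO1 only and 3 in MA-10 only. The line in which a gene was higher is thus partly set by the choice of these genes, and no test is given for them.

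The widest differences among these 29 were those of Zfp469, Zfp941 and Zfp324. Zfp469, whose human counterpart is known from a brittle cornea disorder, had 11, 9 and 6 counts in the MA-10 libraries and 130, 114 and 129 counts in STARKO1, or means of 0.646 and 6.52 CPM. Zfp941, a KRAB gene, had 4, 0 and 1 counts in MA-10 and 43, 34 and 30 counts in STARKO1. Zfp324, also with a KRAB domain, had 41, 34 and 11 counts against 145, 132 and 116. In all 3 genes each STARKO1 library was well above each MA-10 library.

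The next were Zfp59, Zfp93, Zfp979, Zfp458, Zfp94, Zfp985 and Zfp661, all with a KRAB domain, whose mean level in STARKO1 was between 1.84 and 2.27 times that in MA-10. In Zfp94 the counts were 32, 6 and 6 in MA-10 against 54, 35 and 35 in STARKO1, so the MA-10 libraries differed among themselves by more than MA-10 replicate 1 differed from STARKO1. After scaling, the lines did not overlap for 16 of the 29 genes, each higher in STARKO1, a direction that the choice of these genes favours. Among all 11939 tested genes 2569 were higher without overlap (21.5%) and 2503 lower. The other 13 overlapped, 7 of them with a fitted change below 0, among them Zfp433 and Zfp709.

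**Figure D2:**
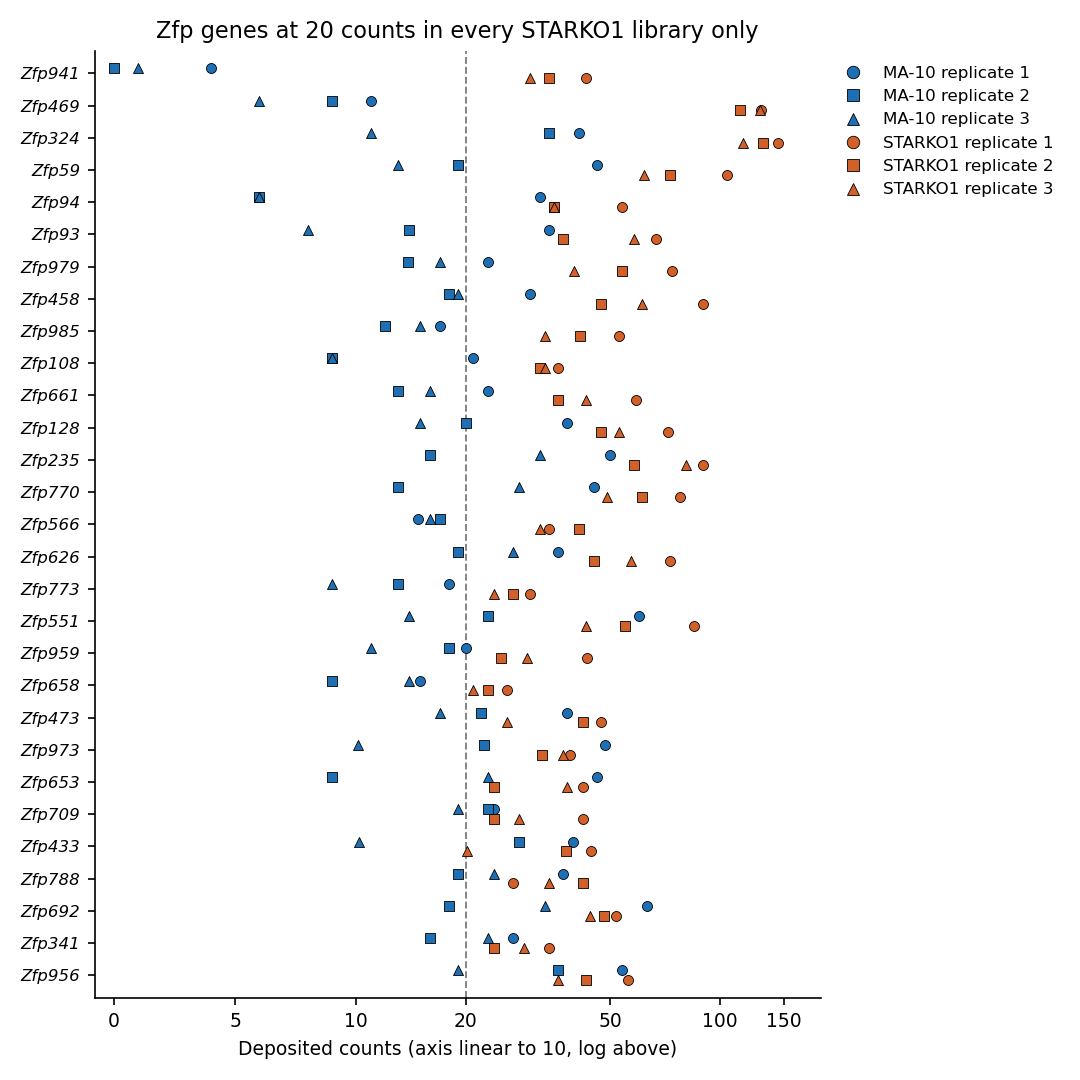
Deposited counts (axis linear to 10 and logarithmic above) of the 29 numbered Zfp genes with at least 20 counts in every STARKO1 library but not in every MA-10 library, ordered by the ratio of mean CPM, with a symbol per replicate; the dashed line is the minimum of 20. In Zfp941 and Zfp469, at the top, all MA-10 libraries lie at 11 counts or fewer and all STARKO1 libraries at 30 or more.

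The encoded proteins fell into classes by a search of their translated sequences. Of the 270 genes, 158 encode a KRAB domain with 2 or more fingers (median 12 fingers), 99 encode 2 or more fingers without KRAB (median 8), 12 have fewer than 2 fingers by the pattern, and the annotation used gave no translated sequence for Zfp469. The finger pattern was a cysteine pair 2 to 4 residues apart, 12 residues, and a histidine pair 3 to 5 residues apart. The KRAB pattern was also met by 180 of 21846 genes with fewer than 2 fingers (0.824%), which gives the scale of chance matches.

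The KRAB genes had the lowest median level of the classes. It was 1.67 CPM per kb of transcript for the KRAB genes, 2.89 for genes with fingers only and 8.08 for those with fewer than 2 fingers, while all tested genes had a median of 5.46. The 5 highest by this measure were Zfp106 (33.0 CPM per kb), an RNA-binding protein needed by motor neurons, Zfp706 (29.3), Zfp740 (18.3), Zfp91 (17.8), a ubiquitin ligase, and Zfp52 (15.1). Only Zfp52 among them encodes a KRAB domain and only Zfp52 passed the test with all libraries. Zfp706 and Zfp740 also passed without MA-10 replicate 1.

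Zfp106 was measured at 346, 364 and 415 CPM in MA-10 and at 335, 301 and 307 CPM in STARKO1 (log2 fold change -0.25, edgeR adjusted p = 0.315). Zfp91 lay between 165 and 202 CPM in MA-10 and between 175 and 181 CPM in STARKO1. Zfp706 split the MA-10 libraries, with 81.1 CPM in replicate 1 and 355 and 196 CPM in replicates 2 and 3, against 78.8, 84.3 and 81.0 CPM in STARKO1. Its log2 fold change was -1.37 (edgeR adjusted p = 0.0935) with all libraries and -1.66 without replicate 1 (edgeR adjusted p = 0.000239). Zfp740 showed the opposite split, with 125 CPM in MA-10 replicate 1, 70.3 and 73.9 CPM in replicates 2 and 3, and between 92.2 and 99.5 CPM in STARKO1. Its log2 fold change was 0.11 (edgeR adjusted p = 0.769) and 0.51 without replicate 1 (edgeR adjusted p = 0.00392).

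The classes had close medians in the comparison of the lines. In the 136 KRAB genes at the minimum in every library, 7 were called higher and 4 lower (8.09%) and the median log2 fold change was 0.022. In the 93 genes with fingers alone, 1 was higher and 3 lower (4.30%) with a median of 0.059. Among all genes at the same minimum 7.87% were called. None of the 12 with fewer than 2 fingers was called by edgeR, and their median was -0.078. An unadjusted p under 0.05 was found for 4 of them and for 3783 of the 10071 genes at the same minimum. Without MA-10 replicate 1, 36 KRAB genes were called higher and 33 lower (50.7%), with a median of 0.067. For the genes with fingers alone the counts were 36 and 25 (65.6%), with a median of 0.22. For the 12 with fewer than 2 fingers they were 1 and 5 (50%), with a median of -0.0084. The same fit called 67.2% of all genes with 20 counts in every library.

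**Figure D3:**
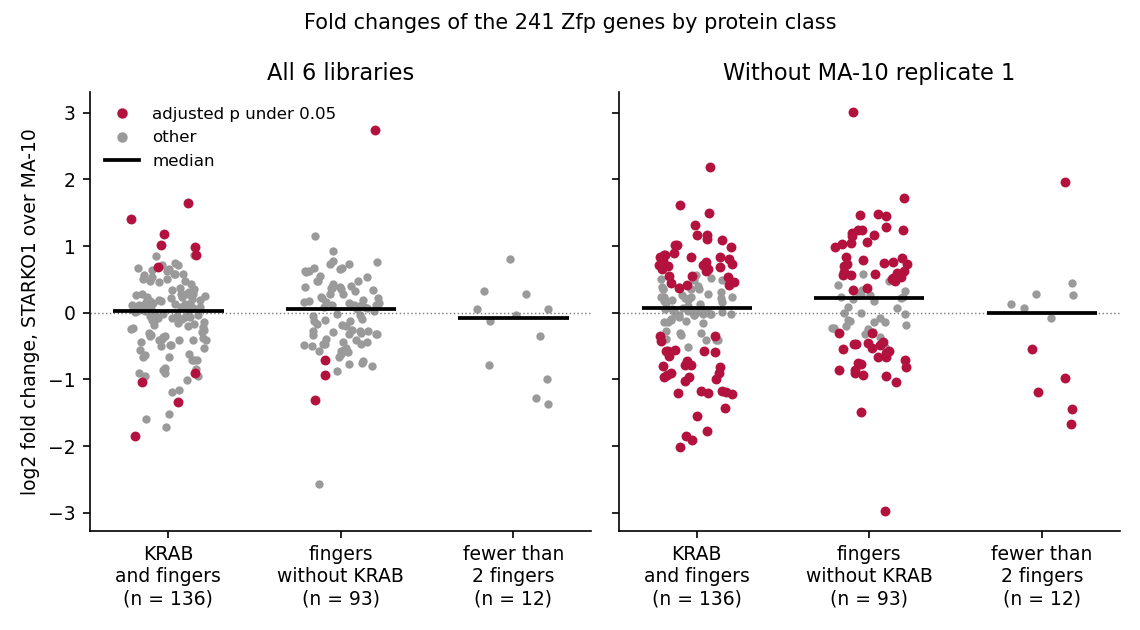
Log2 fold change of STARKO1 over MA-10 for the 241 numbered Zfp genes with 20 counts in every library, by protein class, with all 6 libraries (left) and without MA-10 replicate 1 (right); each point is a gene, red where the edgeR adjusted p was under 0.05, and the bar is the median. The class medians lie between -0.078 and 0.059 on the left, with 15 red points there (6.22%) and 136 on the right (56.4%). Among all genes at the same minimum 7.87% and 67.2% were called.

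The fold change moved weakly with transcript properties. Over the 241 genes Spearman's rho of the log2 fold change was 0.248 with exon length, 0.280 with GC content and 0.0926 with the number of fingers. Over 10035 tested genes at the same minimum the rho was 0.200 with length and 0.217 with GC content. Genes share libraries and are not independent, and these values are descriptions. With offsets for GC content 15 Zfp genes were called higher and 7 lower, and with offsets for length 8 and 10. The share of all genes called with these offsets is not given here.

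Several well studied Zfp genes, named for their known roles and not by their values, did not pass. Zfp445, which keeps genomic imprints, lay between 26.2 and 32.0 CPM in MA-10 and between 27.2 and 30.8 CPM in STARKO1 (log2 fold change 0.055, edgeR adjusted p = 0.813). Zfp809, which silences retroviral DNA in embryonic cells, lay between 7.16 and 9.07 CPM and between 6.78 and 7.87 CPM (-0.14, edgeR adjusted p = 0.593). Zfp568, which represses a placental transcript of Igf2, was at 16.1, 7.89 and 9.33 CPM in MA-10 and at 18.5, 19.7 and 22.1 CPM in STARKO1 (0.85, edgeR adjusted p = 0.0873). The libraries of Zfp568 did not overlap, and without MA-10 replicate 1 its change was 1.31 (edgeR adjusted p = 0.000188).

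The Zfp genes were unevenly spread over the genome, with 69 on chromosome 7, 38 on chromosome 17, 23 on chromosome 13 and 19 each on chromosomes 2 and 8. When neighbours starting within 500 kb were joined and groups of 3 or more kept, 144 of the 270 fell into 22 clusters. With 250 kb there were 19 clusters and with 1000 kb there were 24. Of the 20 clusters with 3 or more genes at the minimum in every library, 13 had a positive and 7 a negative median log2 fold change, from -0.70 to 0.68. The medians were positive in 17 and negative in 3 without MA-10 replicate 1. Of genes at the minimum in every library, 6 of the 127 in clusters were called higher and 4 lower (7.87%, median log2 fold change 0.041), and 2 of the 114 outside them were higher and 3 lower (4.39%, median -0.024). This order turned without MA-10 replicate 1, with 55.1% of the genes called in clusters and 57.9% outside them, and the medians were 0.088 and 0.092. Among all genes at the same minimum 7.87% were called with all libraries and 67.2% without MA-10 replicate 1.

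The largest cluster holds 22 genes on chromosome 17 (chr17:21008903-23599488), from Zfp160 to Zfp13, all with a KRAB domain and all at the minimum in every library. Its genes did not move as a block. Zfp213 and Zfp994 were called higher and Zfp52 lower, 14 of 22 had a negative fold change, and the median was -0.37. The summed level was 233, 356 and 337 CPM in MA-10 and 236, 226 and 225 CPM in STARKO1, so MA-10 replicate 1 lay with STARKO1 and replicates 2 and 3 above. Without replicate 1, 4 of the 22 genes were called higher and 10 lower, in a fit that called 67.2% of all genes at the same minimum.

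Within this cluster the neighbours Zfp53 and Zfp52 had similar library patterns. Zfp53 was at 15.1, 25.9 and 25.5 CPM in MA-10 and 12.6, 11.8 and 11.1 CPM in STARKO1 (log2 fold change -0.90, edgeR adjusted p = 0.0606, and -1.03 without MA-10 replicate 1, edgeR adjusted p = 0.000155). Zfp948 was at 22.9, 52.7 and 39.3 CPM in MA-10, with replicate 1 below all STARKO1 libraries, which lay at 25.7, 23.8 and 25.3 CPM. It did not pass with all libraries (log2 fold change -0.62, edgeR adjusted p = 0.172) and passed without replicate 1 (-0.79, edgeR adjusted p = 0.00115). Zfp40, at 2.86, 4.42 and 4.93 CPM in MA-10 and 6.11, 6.66 and 6.35 CPM in STARKO1, was higher in every STARKO1 library but did not pass with all libraries (0.65, edgeR adjusted p = 0.110). It passed without MA-10 replicate 1 (0.53, edgeR adjusted p = 0.0245). The other 5 tested genes in the interval had a median log2 fold change of 0.41. In 11 of the 22 genes the counts were whole in every library.

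The lowest cluster median, -0.70, belonged to 4 KRAB genes on chromosome 2 (chr2:150114406-150485092). Zfp120 was at 15.0, 63.1 and 49.7 CPM in MA-10 and 14.9, 12.1 and 11.97 CPM in STARKO1 (log2 fold change -1.71, edgeR adjusted p = 0.0662, and -2.02 without MA-10 replicate 1, edgeR adjusted p = 2.19e-05). Zfp345 was at 2.92, 21.7 and 11.5 CPM in MA-10 and 4.82, 5.25 and 5.90 CPM in STARKO1 (-1.16, edgeR adjusted p = 0.208, and -1.55 without that library, edgeR adjusted p = 0.000853). In Zfp120 MA-10 replicate 1 lay next to the highest STARKO1 library and in Zfp345 below all of them, while the other MA-10 libraries were higher. Zfp937 and Zfp442, between them, had log2 fold changes of 0.061 and -0.24. None of these 4 genes had whole counts in every library, so the division of reads between near-identical copies could affect each of them.

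The highest median over genes at the minimum in every library, 0.68, was that of a cluster on chromosome 8 (chr8:71882019-71993793) with Zfp709, Zfp882, Zfp617 and Zfp961, all KRAB genes. Its median was 0.81 without MA-10 replicate 1, and the highest was instead the 1.06 of the 3 genes from Zfp263 to Zfp597 on chromosome 16, which had 0.48 with all libraries. The summed level of the chromosome 8 cluster was 32.8, 38.0 and 30.6 CPM in MA-10 and 49.5, 44.1 and 45.8 CPM in STARKO1, without overlap. This sum includes Zfp709, which reached the minimum in STARKO1 only. Zfp961, at 11.9, 11.6 and 10.7 CPM against 19.0, 18.0 and 18.0 CPM, was the gene that passed with all libraries. Zfp882, at 2.75, 1.73 and 2.64 CPM against 4.95, 3.77 and 4.38 CPM, did not (log2 fold change 0.87, edgeR adjusted p = 0.0736) but passed without MA-10 replicate 1 (1.09, edgeR adjusted p = 0.00773). Zfp882 and Zfp617 overlap on the same strand, so reads of the shared stretch cannot be assigned to either with certainty.

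In 7 of the 22 clusters the summed level did not overlap between the lines, in 4 of them with the STARKO1 libraries higher and in 3 with them lower. For single genes of the table at the minimum in every library the shares were 20.3% higher and 22.1% lower. Of the higher clusters, those starting at Zfp954, Zfp551 and Zfp709 hold genes that reached the minimum in STARKO1 only, and that starting at Zfp930 does not. The lower ones hold no such gene, so the split is partly set by the choice of genes. The 8 genes of a cluster on chromosome 7, from Zfp180 to Zfp428, illustrate how the minimum bears on such summaries. Zfp111 and 4 genes that reached the minimum in STARKO1 only had fold changes above 0.70 on the log2 scale, yet the median of the 4 genes at the minimum in every library was -0.050. That median was 0.20 without MA-10 replicate 1.

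Chromosome 8 also carries Zfp423, Zfp90, Zfp358 and Zfp469. Of its 17 Zfp genes at the minimum in every library, 3 were called higher and 1 lower and 11 had a positive fold change, with a median of 0.58. The other 648 tested genes of the chromosome had a median of 0.17, and 11.3% of them were called. The medians were 0.78 and 0.31 without MA-10 replicate 1. On chromosome 13, by contrast in sign, 6 of 22 Zfp genes had a positive fold change and the median was -0.18, beside a median of -0.24 for its other 486 tested genes. These medians became -0.072 and -0.18 without MA-10 replicate 1. Whether the Zfp genes and their chromosomes differ was not tested.

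**Figure D4:**
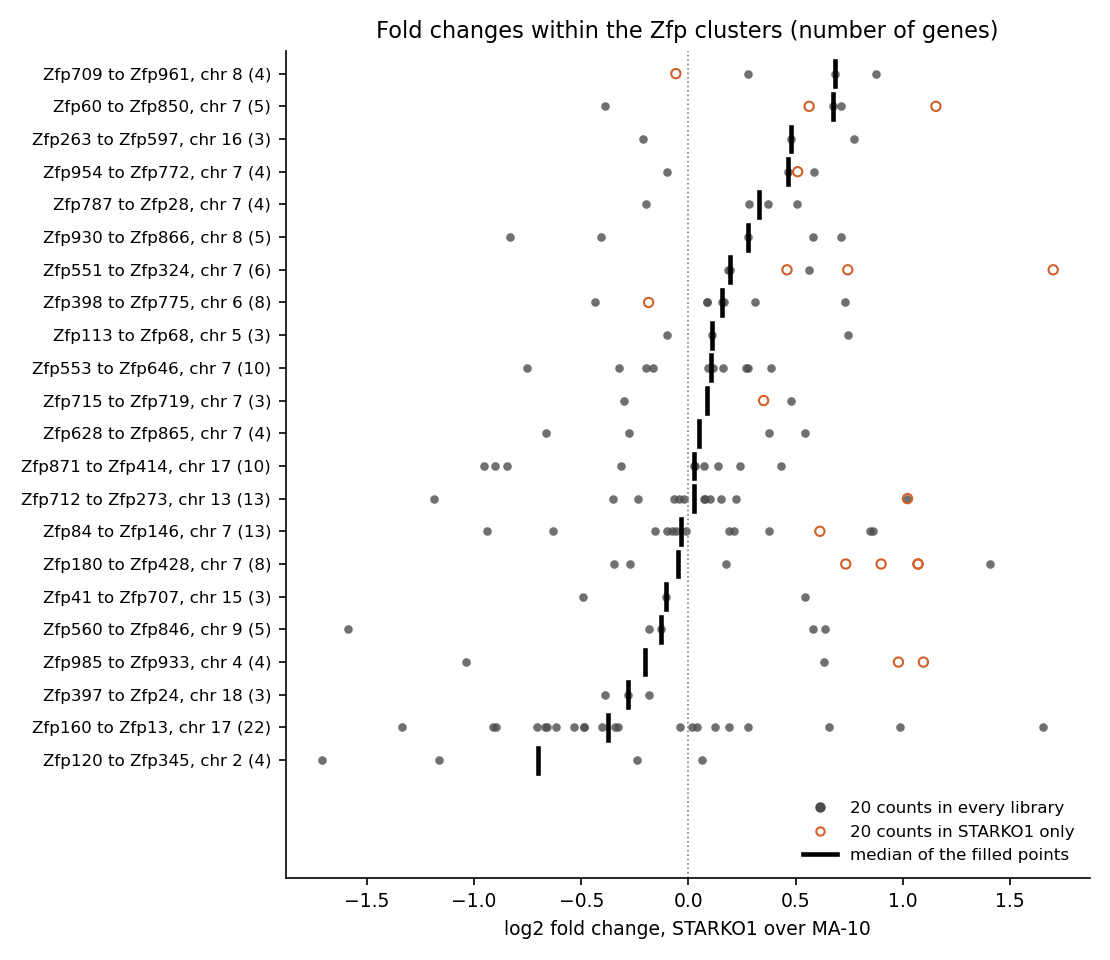
Log2 fold change of STARKO1 over MA-10 for the numbered Zfp genes in each of 22 clusters, labelled with the genes at their ends, the chromosome and the number of genes; filled points had 20 counts in every library, open points in STARKO1 only, and the bar is the median of the filled points. Filled points lie on both sides of 0 in most clusters, and the medians run from -0.70 (chromosome 2) to 0.68 (chromosome 8).

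The start regions of the Zfp genes were searched for short motifs, as a description of what they share. RefSeq start windows (GRCm38.p6, 250 bases before and 50 after the start) were found for 232 of the 270 Zfp genes and for 9214 protein-coding genes of the table. Letters were searched on both strands. The GC box GGGCGG was found in 47.0% of the Zfp windows and 65.6% of all windows, CCAAT in 50% and 39.9%, the ETS core CGGAAGT in 22.0% and 14.7%, the YY1 core ATGGCGG in 11.6% and 8.80%, and TATAAA in 5.60% and 6.51%.

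The longest run of letters shared by the windows of Zfp111 and Zfp260 was ACTACATTTCCCAGAA, with 16 bases. Its beginning, searched as ACTACANTTCC, is part of the sequence that ZFP143 (ZNF143) is known to bind, and it was chosen after the windows had been seen. It was found in 35 of the 232 Zfp windows (15.1%) and in 245 of all 9214 (2.66%). It overlaps the shorter core ACTACAA, found in 7.33% and 4.87%, where the N is an A. The windows that held it were concentrated in a few clusters, with 10 of 12 windows in the chromosome 13 cluster from Zfp712 to Zfp273, 8 of 12 from Zfp84 to Zfp146 on chromosome 7 and 5 of 8 from Zfp180 to Zfp428, while none of the 20 windows of the largest cluster held it. Copies in a cluster share ancestry, so these windows are not independent.

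The stretches below show the run in the windows of the genes described above that hold it, each read 5′ to 3′ on the strand on which it reads ACTACANTTCC, with the run in capitals. The bases after the run are also alike in Zfp111, Zfp260 and Zfp93.
Zfp111 (chr7:24208192-24208221, plus strand): ctcttttgggACTACATTTCCcagaatgct
Zfp260 (chr7:30095039-30095068, minus strand): ttaactgtgaACTACATTTCCcagaagtct
Zfp93 (chr7:24270338-24270367, minus strand): tggcgttggaACTACAATTCCcagaattcc
Zfp458 (chr13:67269151-67269180, plus strand): aattgttgggACTACATTTCCcacaagtca
Zfp94 (chr7:24316803-24316832, plus strand): gaacagttgaACTACATTTCCggtagtgaa

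Genes with this run went both ways. Zfp111 was called higher and Zfp260 lower, and the 28 genes with the run and 20 counts in every library had a median log2 fold change of -0.029, against 0.022 for the 176 with a window and no run. Both were higher without MA-10 replicate 1, at 0.066 and 0.075. Zfp260 and Zfp27, which was called higher, lie in the same cluster on chromosome 7, where the median was -0.036 over 12 genes (0.12 without MA-10 replicate 1) and the summed level lay between 149.7 and 162.7 CPM in MA-10 and between 148.2 and 152.1 CPM in STARKO1. The RefSeq start of Zfp111 lies inside the gene's span in the deposited table. Zfp143 itself, a numbered Zfp gene without KRAB, was at 33.3, 34.1 and 49.7 CPM in MA-10 and 26.2, 24.1 and 28.9 CPM in STARKO1, with a log2 fold change of -0.56 that did not pass (edgeR adjusted p = 0.101). It passed without MA-10 replicate 1 (-0.58, edgeR adjusted p = 0.0209).

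The windows of the gene that rose most, of the most abundant gene that fell and of Zfp260 are shown to contrast their composition, with the searched letters in capitals. The Zfp423 window holds 21 CpG dinucleotides and 2 GC boxes in 65.7% GC, while those of Zfp52 and Zfp260 hold 5 CpG each.
Zfp423 (chr8:87959546-87959845, minus strand): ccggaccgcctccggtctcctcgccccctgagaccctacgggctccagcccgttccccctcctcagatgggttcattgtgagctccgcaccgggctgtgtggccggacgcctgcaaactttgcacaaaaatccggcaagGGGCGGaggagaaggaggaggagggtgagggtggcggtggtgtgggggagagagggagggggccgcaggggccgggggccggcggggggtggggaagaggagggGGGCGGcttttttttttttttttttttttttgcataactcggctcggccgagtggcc
Zfp52 (chr17:21535289-21535588, plus strand): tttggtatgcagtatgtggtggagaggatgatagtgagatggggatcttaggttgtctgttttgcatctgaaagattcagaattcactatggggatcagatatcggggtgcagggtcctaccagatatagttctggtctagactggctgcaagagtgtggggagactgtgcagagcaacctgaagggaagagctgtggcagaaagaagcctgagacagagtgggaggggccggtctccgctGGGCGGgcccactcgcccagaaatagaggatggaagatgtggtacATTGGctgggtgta
Zfp260 (chr7:30094826-30095125, plus strand): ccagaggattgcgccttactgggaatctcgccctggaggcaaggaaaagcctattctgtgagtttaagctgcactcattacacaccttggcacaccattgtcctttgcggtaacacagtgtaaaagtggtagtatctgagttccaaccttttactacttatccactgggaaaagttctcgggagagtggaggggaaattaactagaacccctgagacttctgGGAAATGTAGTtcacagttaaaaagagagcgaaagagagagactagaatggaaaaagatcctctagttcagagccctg

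Genes of the proteins that KRAB zinc finger proteins work with, and of heterochromatin, were listed separately. All 42 were tested. Of these, 3 were called higher in STARKO1 and 0 lower by edgeR (7.14%, against 4.30% higher, 4.74% lower and 9.04% in either direction for all 11939 tested genes). An unadjusted p under 0.05 was found for 14 of the 42 and for 4493 of the 11939 tested genes. The median log2 fold change of the 42 was 0.039. DESeq2 called 11 of the 42, and its share over all genes is not given here. Without MA-10 replicate 1 edgeR called 10 of them higher and 11 lower (50%). The same fit called 34.0% of all tested genes higher and 31.7% lower (65.7%). The median of the 42 was then 0.083.

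Setdb1, the methyltransferase that TRIM28 recruits, was at 23.1, 10.4 and 12.9 CPM in MA-10 and at 41.3, 42.5 and 44.6 CPM in STARKO1 (log2 fold change 1.46 ± 0.303, edgeR adjusted p = 0.0359). Trim28 was at 220, 77.5 and 107 CPM in MA-10 and at 322, 349 and 372 CPM in STARKO1. Every STARKO1 library of Trim28 was above every MA-10 library, but MA-10 replicate 1 was far above the other MA-10 libraries, and the log2 fold change of 1.37 ± 0.387 did not pass (edgeR adjusted p = 0.0657). Without MA-10 replicate 1 it was 2.00 (edgeR adjusted p = 4.79e-05), and that of Setdb1 was 1.97.

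Pphln1, a subunit of the HUSH complex that works with SETDB1, was at 41.4, 33.5 and 37.6 CPM in MA-10 and 60.8, 65.8 and 63.9 CPM in STARKO1 (log2 fold change 0.76, edgeR adjusted p = 0.0328). Its partners differed in sign and did not pass with all libraries, with 0.42 for Tasor and -1.35 for Mphosph8. Both passed without MA-10 replicate 1, Tasor higher (0.55, edgeR adjusted p = 0.00933) and Mphosph8 lower (-1.61, edgeR adjusted p = 1.81e-05). Uhrf1, which brings DNA methyltransferase to newly copied DNA, was at 139, 115 and 110 CPM in MA-10 and 190, 204 and 201 CPM in STARKO1 (0.71, edgeR adjusted p = 0.0483). Setdb1, Pphln1 and Uhrf1 each passed in 1 of the 6 fits that left out a library, that without MA-10 replicate 1. The heterochromatin protein 1 genes Cbx1, Cbx3 and Cbx5 had log2 fold changes of -2.04, -1.03 and 0.40, none of which passed with all libraries. All 3 passed without MA-10 replicate 1, at -2.41 for Cbx1 (edgeR adjusted p = 1.54e-05), -1.31 for Cbx3 (edgeR adjusted p = 0.000348) and 0.74 for Cbx5 (edgeR adjusted p = 0.00179). In Cbx1 the level was 110 CPM in MA-10 replicate 1 and 799 and 547 CPM in replicates 2 and 3, against 117 to 119 CPM in STARKO1.

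**Figure D5:**
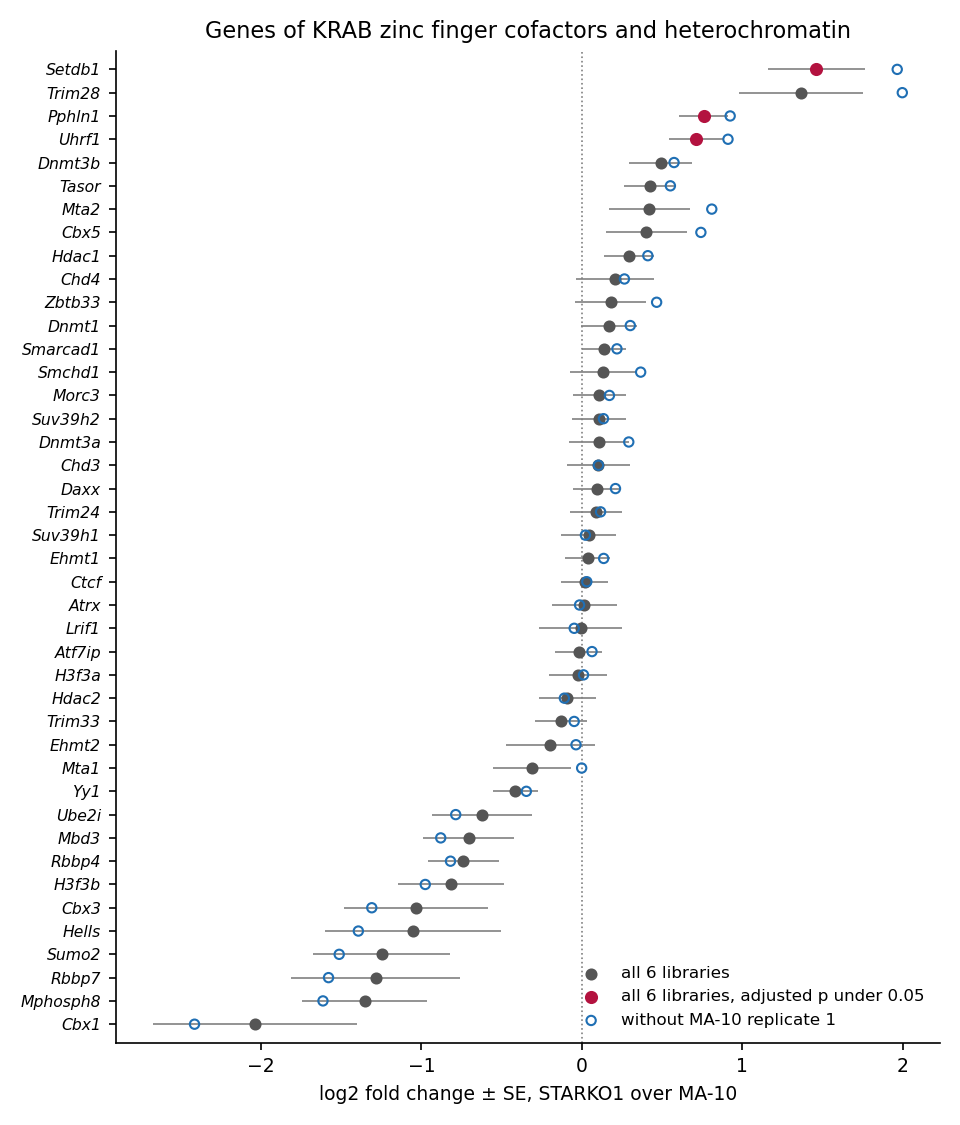
Log2 fold change ± SE of STARKO1 over MA-10 for 42 genes of KRAB zinc finger cofactors and heterochromatin proteins, red where the edgeR adjusted p was under 0.05, with the value without MA-10 replicate 1 as an open blue circle. Setdb1 (1.46), Pphln1 (0.76) and Uhrf1 (0.71) are red, and Trim28 (1.37) is not.

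Other zinc finger families were set beside the Zfp genes. Of 37 tested Zbtb genes 1 was called higher and 3 lower, of 17 Zscan or Zkscan genes 0 and 1, of 17 Zc3h genes 1 and 1, and of 22 Zdhhc, Znhit or Zmiz genes 0 and 0 by edgeR. An unadjusted p under 0.05 was found for 9 of these 22 and for 4493 of all 11939 tested genes. The shares called were 10.8%, 5.88%, 11.8% and 0%, against 9.04% of all tested genes. Their median log2 fold changes were 0.056, 0.050, -0.089 and 0.34. Leaving out MA-10 replicate 1 gave 0.35, 0.35, -0.11 and 0.45, and between 62.2% and 72.7% of each family was called, against 65.7% of all tested genes.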

How the data were processed

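Total RNA was sequenced with a stranded library kit in 3 MA-10 and 3 STARKO1 libraries. The authors deposited estimated counts per gene, not normalized and with replicates apart, and 8007 of the 14774 rows were not whole in some library. The submitters' processing notes name STAR 2.6.1d, Partek and the mouse build mm10; the paper names no test for these counts. All 6 columns were matched to libraries by name.

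Estimated counts were rounded and fitted in R 4.3.3 with edgeR 4.0.16 (filterByExpr, TMM, glmQLFit and glmQLFTest, 11939 genes tested, Benjamini-Hochberg adjustment over all of them), without a replicate block. The SE is the log2 fold change divided by the square root of F. DESeq2 1.42.0 was an alternative. Coordinates are those of the table. Lengths, GC content of the longest transcript and translated sequences came from GENCODE M21 (GRCm38), in which all 270 genes were found, and start windows from RefSeq, the first window listed per gene. CPM per kb divides by the exon length. At these depths 3 counts are at most 0.264 CPM, and genes near the minimum of 20 counts carry a large counting error. The scripts were tested on simulated counts.

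The members, the gene lists and the tests were chosen with earlier results of these data known. Named are all called genes at 20 counts in every library, up to 10 genes at 20 counts in STARKO1 only whose lines do not overlap, the 5 highest by CPM per kb, genes of the largest cluster and of those with the highest and lowest median over genes at the minimum in every library, genes next to the minimum, cofactors that passed, Trim28, Setdb1 and Star; other genes are said to have been picked otherwise, or stand as examples in the cofactor list. Alternatives were other scalings and filters, DESeq2, a replicate block, offsets for length or GC content, other minimums, and leaving out each library. Offsets over the GC content of transcripts, all 270 members and a minimum of 2 CPM were chosen after seeing the data.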

Additional observations from a re-analysis of the deposited data

How the results depend on the processing

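With all libraries and edgeR, 8 Zfp genes were called higher and 7 lower in STARKO1. The counts were 20 and 26 with DESeq2, 9 and 3 with upper quartile scaling, 3 and 0 with scaling by total count, 8 and 3 without a filter, 8 and 2 with at least 10 counts in every library, 8 and 10 with gene length offsets, 15 and 7 with GC content offsets, and 6 and 3 for genes with whole counts throughout. A minimum of 50 counts in every library of 1 cell line gave 10 and 7. That set takes in genes that passed in STARKO1 only, whose direction the choice favours. A minimum of 20 counts in all libraries is the set reported. Same-numbered libraries did not deviate together (correlations of -0.0165 to 0.0455 for the pairs). With 3 libraries per line this cannot show whether they were handled together, and the labels do not say. With the replicate block the counts were 1 and 1, also together with gene length offsets, and Zfp423 and Zfp9 passed. Leaving out a library gave 1 to 73 genes higher and 0 to 63 lower, the highest counts being those without MA-10 replicate 1. For the cofactor genes, 3 called became 11 with DESeq2, 0 with scaling by total count, 0 with the replicate block with or without length offsets, and 0 to 21 when a library was left out. The cause of these differences was not tested. Without MA-10 replicate 1 the fit called 65.7% of all tested genes. Shares of all genes are not given for the other alternatives, so their counts cannot be read against a background.

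The median log2 fold change of the Zfp genes, 0.023, was 0.16 with upper quartile scaling, 0.43 with scaling by total count (0.38 for all tested genes), 0.079 without a filter, 0.088 with GC content offsets, -0.022 for genes with whole counts, and -0.026 to 0.088 when a library was left out. It was 0.060 for all 270 genes, and 0.058 with a minimum of 50 counts and 0.059 with 2 CPM in every library of 1 cell line. These 3 sets take in genes that passed in STARKO1 only, whose direction the choice favours. None of the 15 called genes changed sign under any alternative run, and 1 of them, Zfp423, passed in at least 5 of the 6 fits that left out a library. Signs did change for Zfp106, Zfp740, Zfp91 and others near 0.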
